A study of Mus musculus with 8 samples.

Results

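Expression of 8 genes of extracellular serine proteolysis was examined in the dorsal cortex of E15.5 C57BL/6 mouse embryos, by RNA-seq of 4 libraries labelled WT and 4 libraries labelled ErbB4 KO (genotype ErbB4 -/-). The genes were 6 serine proteases (Prss12, Corin, Prss56, Prss23, Plat and Htra1) and 2 serpins (Serpini1 and Serpine2), out of 23284 gene symbols in the count files. They were chosen by name, and the family was selected on measured values, since Prss12, Corin and Prss56 had been seen to be higher in the libraries labelled ErbB4 KO. The comparison between genotypes is therefore a description for these 3 genes, without a test. The choice of the other 5 did not use their own values. ErbB4 is a receptor tyrosine kinase for neuregulins. The ErbB4 -/- mice lack it in every tissue except the heart, where a transgene under the alpha-MHC promoter restores it, and the 2 genotypes were kept as separate homozygous colonies. The dissected dorsal cortex was freed of its meningeal covering and of ventral ganglionic eminence tissue.

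Serine proteases cut proteins with a serine side chain that is activated by a neighbouring histidine and aspartate. Those that are secreted or anchored in the plasma membrane activate growth factors and hormones, release peptides and remodel the extracellular matrix. Serpins trap a protease irreversibly, because the protease attacks an exposed loop of the serpin that mimics a substrate. In the brain, tissue plasminogen activator (Plat), neurotrypsin (Prss12), neuroserpin (Serpini1) and protease nexin-1 (Serpine2) are known for roles in neuronal migration, synapse formation and plasticity.

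The catalytic site of each protease and the cleaved bond of each serpin loop are shown as DNA, since they define what the 2 kinds of protein do. The sequences were read 5′ to 3′ on the coding strand from the mm9 genome (NCBIM37). Capitals mark the codon of the catalytic serine in the proteases and the codon of the arginine that the protease attacks in the serpins.
Prss12, chr3:123209275-123209307, plus strand: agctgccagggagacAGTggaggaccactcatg
Corin, chr5:72692896-72694038, minus strand, across an exon junction: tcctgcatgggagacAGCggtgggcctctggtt
Prss56, chr1:89082846-89082869, plus strand: ggtgacTCCgggggccctttaacc
Prss23, chr7:96658410-96658442, minus strand: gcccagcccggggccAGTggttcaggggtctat
Plat, chr8:23891053-23892443, plus strand, across an exon junction: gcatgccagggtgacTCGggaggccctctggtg
Htra1, chr7:138123004-138123492, plus strand, across an exon junction: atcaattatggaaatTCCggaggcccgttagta
Serpini1, chr3:75444173-75444205, plus strand: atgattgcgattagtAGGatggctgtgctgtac
Serpine2, chr1:79793450-79793482, minus strand: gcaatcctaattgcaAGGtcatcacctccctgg
The serine codon was of the AGT or AGC type in Prss12, Corin and Prss23, and of the TCC or TCG type in Prss56, Plat and Htra1. The codon of aspartate, gac or gat, stands directly before the serine codon in Prss12, Corin, Prss56 and Plat but not in Prss23 and Htra1, which belong to other branches of the family. Both serpins carry the same codon, AGG, at the attacked bond.

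The libraries held between 28205703 and 48871480 reads in genes. Levels are given as CPM (the reads of a gene scaled to a fixed library total) adjusted by the trimmed mean of M-values (TMM), and differences as log2 fold changes of the libraries labelled ErbB4 KO over WT from edgeR's quasi-likelihood fit. Erbb4 itself was at 18.3 ± 6.81 CPM (SD, n = 4) in WT and at 22.4 ± 1.92 (SD, n = 4) in libraries labelled ErbB4 KO (log2 fold change 0.28, edgeR adjusted p = 0.812). WT replicate 1 was the lowest, at 8.99 CPM against 19.2 to 25.3 CPM in the other WT libraries, and without it the log2 fold change of Erbb4 was 0.06 (SE 0.11, edgeR adjusted p = 0.938). Counts over the whole gene also take reads from outside a disrupted part, so they do not check the labels, and the genotypes below are those of the labels. Cortical neuron markers were high in all libraries, with a summed level of 4815 to 5619 CPM in WT and 4982 to 5297 CPM in those labelled ErbB4 KO. Red blood cell markers summed to 33.2 to 58.1 CPM in WT and to 23.2 to 36.6 CPM in those labelled ErbB4 KO. Of the 5 that passed the filter on low counts, 2 were lower and 0 higher at an unadjusted p under 0.05, beside 5.53% of all genes tested. None of the 5 had an adjusted p under 0.05. ErbB4 KO replicate 3 stood apart in the summed level of 8 choroid plexus and cortical hem markers, at 628 CPM against 5.42 to 18.8 CPM in the other 7 libraries. Ttr made up 572 CPM of this sum. Not all of the 8 stood apart, since Wnt3a, at 2.64 CPM, was within the range of the other libraries (1.71 to 2.92 CPM). The 9 meningeal markers summed to 28.8 CPM in ErbB4 KO replicate 3 against 13.5 to 17.0 CPM in the others. Among them Ogn was at 7.58 CPM against at most 1.66 CPM in the others, while Dcn and Foxc1 were within the range of the others. WT replicate 1 stood apart over all genes, with a chi-square per degree of freedom of 38.4 to 48.6 against the other WT libraries, which differed from each other by 11.9 to 15.8. Values of Prss12 and Prss56 without it are given below. WT replicates 1, 2 and 3 held 983 to 1686 CPM of Xist, while WT replicate 4 and the 4 libraries labelled ErbB4 KO held at most 3.82 CPM of it and had high levels of 4 Y-linked genes. Apart from WT replicate 4, sex and genotype therefore cannot be told apart. All 8 genes passed the filter on low counts (minimum count 10), as did 14696 genes in all. Corin, with at most 4 reads in a WT library, passed only through the libraries labelled ErbB4 KO. Prss56 also depended on them, since WT replicate 1, with 19 reads, was its only WT library with 10 reads or more. Shares over all genes tested are therefore not a like comparison for Corin and Prss56.

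Prss12, Corin and Prss56 each had all 4 libraries labelled ErbB4 KO above all 4 WT libraries. Such a separation was seen in 1.86% of all genes tested, and nothing is read from the count of 3 here because this contrast chose the genes. The fold differences were 1.70 for Prss12 (ratio of mean CPM), 5.90 for Prss56 and 10.2 for Corin (both as ratios of pooled CPM). None of the other 5 genes showed it. At an adjusted p under 0.05, edgeR called 0 of the 8 genes, beside 0.0272% of all genes tested (0.0068% higher). At an unadjusted p under 0.05 it called 3, all higher and all of them the chosen genes, beside 5.53% of all genes tested (3% higher). DESeq2, the tool of the study, called these 3 at an adjusted p under 0.05, beside 0.0719% of all genes called higher. Nothing is read from these counts either, for the same reason.

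**Figure D1:**
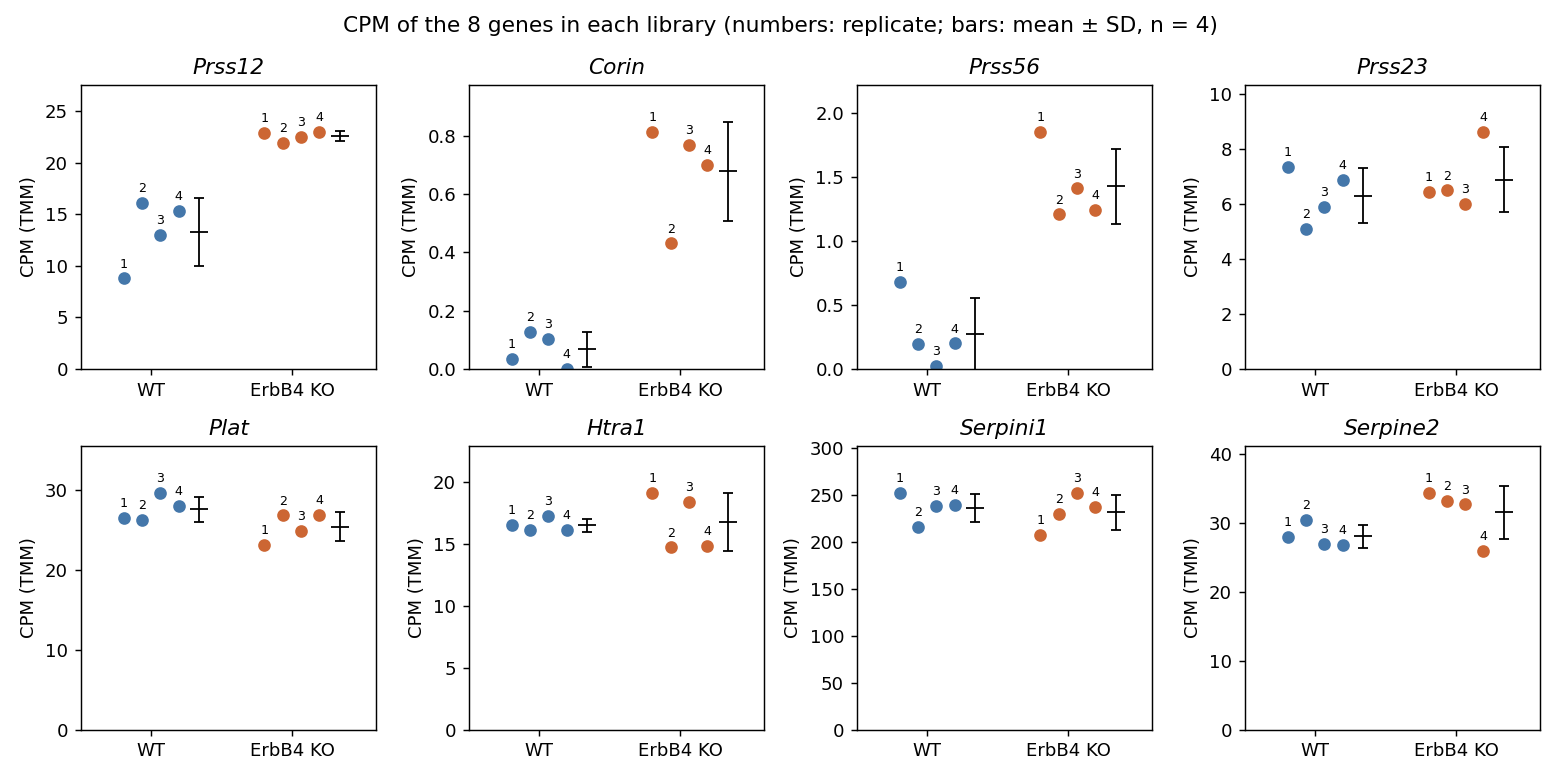
CPM (TMM-scaled, linear axes from 0) of the 8 genes in the 4 WT and the 4 libraries labelled ErbB4 KO, with points numbered by replicate and bars for the mean ± SD (n = 4); the WT bar of Prss56 reaches below 0 and is cut at the axis. The groups separate in Prss12 (8.77 to 16.1 against 21.9 to 23.0 CPM), Corin and Prss56 and overlap in the other 5 genes.

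Prss12 encodes neurotrypsin, a secreted protease of neurons that cuts agrin at the synapse and whose loss in humans causes an intellectual disability. The gene lies at chr3:123149831-123209520 on the plus strand (mm9). In WT libraries 1 to 4 it was at 8.77, 16.1, 13.0 and 15.3 CPM, and in the libraries labelled ErbB4 KO it was at 22.9, 21.9, 22.5 and 23.0 CPM. The latter lay within about 1 CPM of each other, while WT replicate 1 was well below the other 3 WT libraries. The means were 13.3 ± 3.28 CPM in WT and 22.6 ± 0.477 CPM in libraries labelled ErbB4 KO (SD, n = 4 each), and the coefficient of variation was 24.7% against 2.11%. The log2 fold change was 0.76 (SE 0.15, 95% interval 0.44 to 1.09). The intervals given for Prss12, Corin and Prss56 do not allow for the choice of these genes on this contrast. Prss12 rested on 246 to 538 reads per WT library and 723 to 1130 per library labelled ErbB4 KO. Without WT replicate 1 the log2 fold change was 0.61 (SE 0.080), and without ErbB4 KO replicate 3 it was 0.76.

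Corin encodes a transmembrane protease, best known from the heart, where it cuts the precursor of atrial natriuretic peptide into its active form. It lies at chr5:72691264-72895779 on the minus strand. WT libraries held 1, 4, 4 and 0 reads of Corin (0.0357, 0.128, 0.104 and 0 CPM), and the libraries labelled ErbB4 KO held 40, 15, 30 and 22 reads (0.812, 0.431, 0.768 and 0.699 CPM). Corin was thus at the limit of detection in WT and low but present in every library labelled ErbB4 KO. The 0 reads of WT replicate 4 allow a level of up to 0.0854 CPM (3 reads). The pooled level was 10.2 times higher in the libraries labelled ErbB4 KO, with a 95% exact interval of 5.18 to 22.9 that covers counting error only. The fitted log2 fold change was 3.27 (SE 0.51, 95% interval 2.15 to 4.39), and it stayed between 2.85 and 3.71 when each library was left out in turn.

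Prss56 encodes a secreted trypsin-like protease that is known from Müller glia of the retina, where its loss shortens the eye, and from boundary cap cells at the nerve roots. The mm9 annotation holds it under the older symbol 1700027L20Rik as a partial, noncoding model at chr1:89083240-89084978 on the plus strand, and the serine codon printed above lies just outside that model. The extent of the gene in the authors' annotation is not known, so no level per length is given. WT libraries held 0.678, 0.192, 0.0261 and 0.199 CPM (19, 6, 1 and 7 reads), and the libraries labelled ErbB4 KO held 1.85, 1.21, 1.41 and 1.24 CPM (91, 42, 55 and 39 reads). Here WT replicate 1 was the highest of the WT libraries, the reverse of its place in Prss12. The means were 0.274 ± 0.281 and 1.42 ± 0.295 CPM (SD, n = 4 each), with a pooled ratio of 5.90 (95% exact interval 4.08 to 8.78, counting error only). The log2 fold change was 2.47 (SE 0.50, 95% interval 1.37 to 3.57), and it was 3.38 (SE 0.43) without WT replicate 1 and 2.05 without WT replicate 3.

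**Figure D2:**
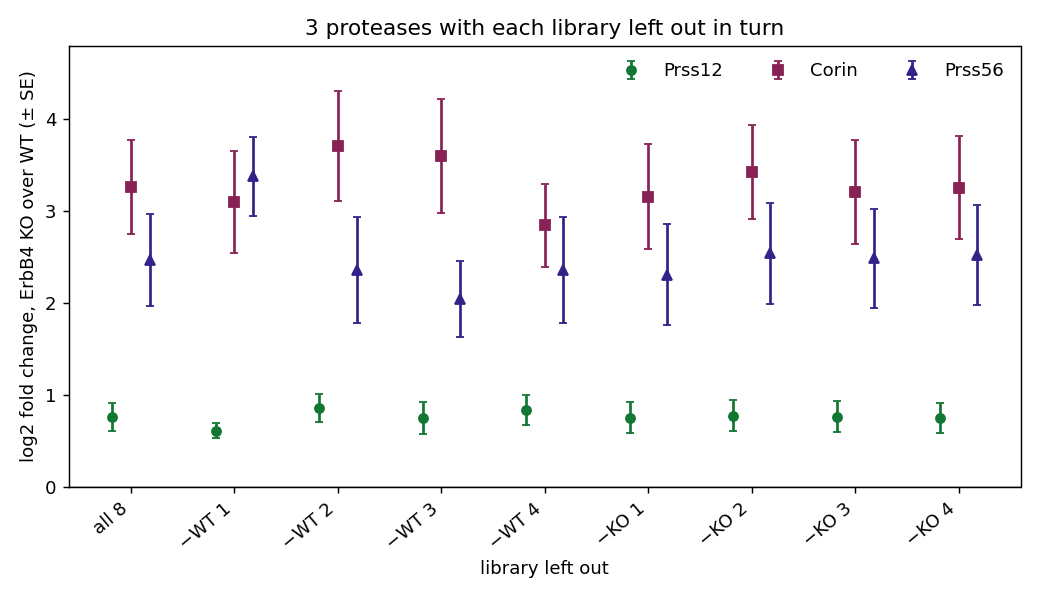
Log2 fold change (± SE) of Prss12, Corin and Prss56 in libraries labelled ErbB4 KO over WT, with all 8 libraries and after removal of each single library. All estimates lie above 0, and the widest movement is that of Prss56, from 2.05 without WT replicate 3 to 3.38 without WT replicate 1.

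WT replicate 4 is the WT library that shares the Y-linked reads of the libraries labelled ErbB4 KO. It was below all 4 of them in each of the 3 genes, which the separation given above already implies. The mean of the libraries labelled ErbB4 KO was 1.47 times the level of WT replicate 4 for Prss12 and 7.15 times for Prss56. For Corin it was at least 7.93-fold higher, taking 3 reads in WT replicate 4 as the floor. This is a single WT library and the genes were chosen on this contrast, so no test is given. The part of sex in these differences was not tested.

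Markers of the neural crest and Schwann cell lineage moved with the same split. Of 7 such genes, of which 4 passed the filter on low counts, 4 had all libraries labelled ErbB4 KO above all WT libraries, a separation seen in 1.86% of all genes tested. They included Sox10 (1.99 to 3.78 against 3.87 to 4.62 CPM), Erbb3 (0.313 to 0.545 against 0.635 to 1.01 CPM) and Egr2 (0.0521 to 0.228 against 0.230 to 0.476 CPM). Egr2 did not pass the filter, and its narrow gap rested on 60 reads in all. Sox10 is also expressed by oligodendrocyte precursors. The summed level of the 7 genes overlapped, at 25.6 to 34.0 CPM in WT and 30.8 to 35.0 CPM in libraries labelled ErbB4 KO. Their part in the values of Prss56 was not tested. In bulk tissue, more cells of a type and more RNA per cell cannot be told apart. The choroid plexus signal of ErbB4 KO replicate 3, mostly Ttr, was not matched by the 3 proteases. In that library they lay within the range of the other 3 libraries labelled ErbB4 KO.

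The upstream windows of the 3 genes are printed because their levels separate the groups in the same direction. Each is the 250 bases before the annotated start in RefSeq (GRCm38.p6), 5′ to 3′ on the gene's strand, with capitals for any match to 5 motifs searched on both strands.
Prss12, chr3:123446663-123446912, plus strand: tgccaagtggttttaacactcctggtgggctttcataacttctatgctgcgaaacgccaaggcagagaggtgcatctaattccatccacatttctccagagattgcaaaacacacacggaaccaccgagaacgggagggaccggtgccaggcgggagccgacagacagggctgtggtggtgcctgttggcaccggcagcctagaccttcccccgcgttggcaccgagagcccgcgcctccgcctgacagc
Corin, chr5:72504541-72504790, minus strand: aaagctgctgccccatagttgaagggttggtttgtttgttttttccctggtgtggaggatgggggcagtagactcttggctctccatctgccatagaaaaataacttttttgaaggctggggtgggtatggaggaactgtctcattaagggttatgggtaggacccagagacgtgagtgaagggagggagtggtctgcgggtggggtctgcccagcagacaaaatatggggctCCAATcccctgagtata
Prss56, chr1:87183064-87183313, plus strand: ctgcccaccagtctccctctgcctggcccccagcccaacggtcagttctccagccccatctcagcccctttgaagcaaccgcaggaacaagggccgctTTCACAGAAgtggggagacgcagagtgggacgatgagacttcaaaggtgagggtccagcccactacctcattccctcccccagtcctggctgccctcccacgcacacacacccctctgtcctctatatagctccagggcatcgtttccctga
The motifs were TATAAA (found in 12.4% of 32851 RefSeq windows of this length), CCAAT (33.8%), GGGCGG (32.7%), the STAT-type site TTCNNNGAA (7.02%) and the RBPJ-type site GTGGGAA (5.42%). Prss12 held none of them, Corin held 1 CCAAT and Prss56 held 1 TTCNNNGAA, so no motif was shared by the 3 windows. The windows also differed in CG dinucleotides, with 15 in Prss12, 7 in Prss56 and 2 in Corin against a median of 6. A match describes the letters of the window and is not evidence of binding.

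Prss23 is a secreted protease of little known substrate range, at chr7:96656295-96666096 on the minus strand. It was at 7.35, 5.10, 5.89 and 6.86 CPM in WT and at 6.43, 6.49, 5.99 and 8.61 CPM in libraries labelled ErbB4 KO, so the groups overlapped. The log2 fold change was 0.12 (SE 0.15, 95% interval −0.20 to 0.45, edgeR adjusted p = 0.856), and its sign rested on ErbB4 KO replicate 4, the highest library (−0.0015 without it).

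Plat encodes tissue plasminogen activator, which turns plasminogen into plasmin and is released by migrating neurons and growth cones. It lies at chr8:23868216-23893319 on the plus strand. Its level was 26.5, 26.3, 29.6 and 28.0 CPM in WT and 23.2, 26.8, 24.8 and 26.9 CPM in libraries labelled ErbB4 KO. It was the only one of the 6 proteases with a lower mean in the latter, and the groups overlapped (log2 fold change −0.12, SE 0.076, 95% interval −0.29 to 0.05, edgeR adjusted p = 0.810).

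Htra1 encodes a secreted protease of the matrix with a protein-binding PDZ domain, and lies at chr7:138079625-138129174 on the plus strand. WT libraries were close together at 16.5, 16.1, 17.2 and 16.1 CPM. The libraries labelled ErbB4 KO spread around them, with replicates 1 and 3 at 19.1 and 18.4 CPM and replicates 2 and 4 at 14.7 and 14.8 CPM. The log2 fold change was 0.03 (SE 0.099, 95% interval −0.19 to 0.24, edgeR adjusted p = 0.963). A long model of Fgfr2 overlaps Htra1 on the opposite strand, and the libraries do not keep the strand. Only whole gene spans were compared, so whether exons of the 2 genes overlap and their reads could mix was not tested. A short model, 1700019G06Rik, likewise lies within Prss23 on the opposite strand.

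The inhibitors did not separate the genotypes. Serpini1, or neuroserpin, is secreted by neurons and inhibits tissue plasminogen activator. It lies at chr3:75361469-75447417 on the plus strand. Its level was 252, 216, 238 and 240 CPM in WT and 207, 230, 252 and 238 CPM in libraries labelled ErbB4 KO (236 ± 15.1 against 232 ± 18.6, SD, n = 4 each). The log2 fold change of −0.03 (SE 0.069, edgeR adjusted p = 0.931) had a 95% interval of −0.18 to 0.12.

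Serpine2, or protease nexin-1, inhibits thrombin, urokinase and tissue plasminogen activator at the cell surface, and lies at chr1:79790772-79855271 on the minus strand. It was at 27.9, 30.4, 26.9 and 26.7 CPM in WT. In libraries labelled ErbB4 KO it was at 34.3, 33.2, 32.6 and 25.9 CPM. Replicates 1 to 3 of the latter lay above all WT libraries, and replicate 4 lay below them all. The log2 fold change was 0.17 (SE 0.093, 95% interval −0.03 to 0.37, edgeR adjusted p = 0.810).

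**Figure D3:**
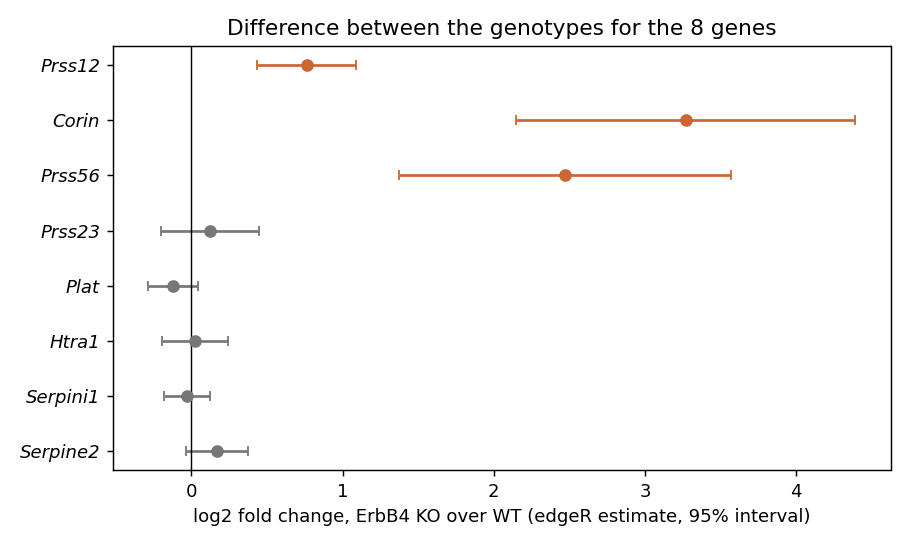
Log2 fold change of the 8 genes in libraries labelled ErbB4 KO over WT, with 95% intervals from edgeR; orange points mark genes whose groups do not overlap. The intervals of Prss23, Plat, Htra1, Serpini1 and Serpine2 include 0 and reach no further than −0.29 and 0.45. Those of the orange points do not allow for the choice of these genes on this contrast.

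Compared per kilobase of exon, the neuronal inhibitor Serpini1 had the highest level of the 7 genes with a length. Serpini1 was at 35.0 ± 2.24 CPM per kb in WT, Plat at 10.9 ± 0.612, Serpine2 at 7.31 ± 0.443, Htra1 at 5.73 ± 0.182, Prss12 at 5.10 ± 1.26 and Prss23 at 1.95 ± 0.311 (SD, n = 4 each). Corin was last, at 0.0133 ± 0.0118 CPM per kb. In WT the ranges of neighbours in this order did not overlap except those of Htra1 and Prss12 (5.59 to 5.98 against 3.36 to 6.16 CPM per kb). In libraries labelled ErbB4 KO, Prss12 was at 8.67 ± 0.183 CPM per kb, above Htra1 (5.82 ± 0.804) and next to Serpine2 (8.22 ± 0.999), whose range of 6.75 to 8.96 CPM per kb contained that of Prss12. Corin remained the lowest, at 0.135 ± 0.0340 CPM per kb.

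The wider network of extracellular proteolysis was given by 147 further genes in 6 lists, of which 145 were in the files and 76 passed the filter. In edgeR's test, 0 of the 76 had an adjusted p under 0.05, 9 had an unadjusted p under 0.05 (7 higher, 2 lower; 9 also by DESeq2 and by limma-voom) and all 9 had an adjusted p of 0.810. The 9 are 11.8% of the 76, against 5.53% of all genes tested. The median log2 fold change was 0.03, against −0.002 for all genes tested. All libraries labelled ErbB4 KO lay above all WT libraries in 3 of the 76, against 1.86% of all genes tested. When single libraries were removed, between 4 (without ErbB4 KO replicate 3) and 11 genes (without ErbB4 KO replicate 4) had an unadjusted p under 0.05. The share over all genes tested was 3.43% and 7.73% in these 2 fits and 2.9% to 9.4% over the 8 fits, whose lowest and highest shares both went with 8 genes of the lists.

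Among 15 other trypsin-like proteases tested, the highest per kilobase were Masp1, which starts the lectin pathway of complement (78.7 ± 7.83 CPM in WT and 80.2 ± 3.06 in libraries labelled ErbB4 KO), and Htra3 (10.9 ± 0.994 and 10.9 ± 0.624 CPM). Tmprss7, a membrane-bound protease, was the gene of this list with an unadjusted p under 0.05, at 1.02 ± 0.601 against 2.00 ± 0.675 CPM (log2 fold change 0.97, SE 0.39, edgeR adjusted p = 0.810). The 9 proprotein convertases, which activate many precursors in the secretory pathway, included Mbtps1 (171 ± 7.91 against 174 ± 4.53 CPM) and Pcsk7 (42.6 ± 0.755 against 42.1 ± 1.52 CPM), and none had an unadjusted p under 0.05.

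Of 11 other serpins, Serpinh1, the collagen chaperone of the endoplasmic reticulum, was at 114 ± 7.71 CPM in WT and 102 ± 5.55 in libraries labelled ErbB4 KO (log2 fold change −0.16, SE 0.064, edgeR adjusted p = 0.810). Serpinb2, an inhibitor of urokinase, was at 0.406 ± 0.178 against 0.198 ± 0.129 CPM (log2 fold change −1.08). Its ranges overlapped, at 0.160 to 0.571 against 0.0768 to 0.381 CPM, and no library held more than 19 reads. In edgeR's test its unadjusted p was 0.118 without WT replicate 1 and 0.123 without ErbB4 KO replicate 3. Serping1, the inhibitor of complement C1, was at 9.75 to 12.9 against 9.94 to 11.4 CPM. Serpinb1b had no unadjusted p under 0.05, but its groups did not overlap, at 0.313 to 0.385 against 0.402 to 1.61 CPM. The 1.61 CPM was that of ErbB4 KO replicate 3, and the means were 0.348 ± 0.0301 against 0.719 ± 0.597 CPM.

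Among 11 inhibitors of other families, App and Aplp2, whose longer forms carry a Kunitz inhibitor domain, were the highest per kilobase, with log2 fold changes of −0.04 (SE 0.057) and −0.01 (SE 0.047) and an Aplp2 level of 216 ± 4.90 against 214 ± 7.27 CPM. Wfikkn2 had a log2 fold change of 2.01 with an unadjusted p under 0.05, but 1 library carried it. Wfikkn2 was at 13.0 CPM in ErbB4 KO replicate 3, the library with the choroid plexus signal, and without that library its log2 fold change was −0.34.

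Receptors and cofactors included F2r, the thrombin receptor (120 ± 10.1 against 113 ± 9.53 CPM), and S100a10, which binds plasminogen at the cell surface (16.5 ± 4.17 against 16.1 ± 5.88 CPM). Vldlr, an endocytic receptor that takes up protease-serpin complexes and also binds reelin, was at 88.7 ± 5.90 CPM in WT and at 103 ± 3.85 CPM in libraries labelled ErbB4 KO. The ranges of Vldlr, 81.0 to 94.2 and 99.8 to 109 CPM, did not overlap, and its log2 fold change was 0.22 (SE 0.061, edgeR adjusted p = 0.810).

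Substrates of the proteases were measured at widely different levels. Agrn, or agrin, the substrate of neurotrypsin, was at 479 ± 66.9 CPM in WT and 484 ± 32.1 CPM in libraries labelled ErbB4 KO. Nppa, the substrate of corin, was at 0.249 ± 0.189 against 0.408 ± 0.196 CPM. The natriuretic peptide receptor Npr2 was at 51.8 ± 1.99 against 53.3 ± 3.16 CPM, while the clearance receptor Npr3 was at 2.89 ± 1.05 against 6.05 ± 2.28 CPM (log2 fold change 1.05, SE 0.30, edgeR adjusted p = 0.810), with overlapping ranges of 1.68 to 4.14 and 3.68 to 8.76 CPM. Without ErbB4 KO replicate 3 the log2 fold change of Npr3 was 0.82. Met, the receptor of hepatocyte growth factor, did not overlap between the groups, at 7.27 to 9.37 against 10.3 to 14.1 CPM (log2 fold change 0.48, SE 0.13, edgeR adjusted p = 0.810). Tgfb2 (20.4 ± 1.94 against 23.9 ± 1.65 CPM) and Pdgfra (15.1 ± 2.04 against 18.6 ± 3.04 CPM), the receptor of the PDGF-C that tissue plasminogen activator can activate, had log2 fold changes of 0.23 and 0.31 with unadjusted p under 0.05.

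The genes next to each of the 8 were compared, to show how far each difference extended along the chromosome. Prss12 stood between 2 genes that went the other way. Ndst3, an enzyme of heparan sulfate synthesis 19.6 kb downstream, was at 28.2 ± 2.41 CPM in WT and 17.5 ± 1.75 CPM in libraries labelled ErbB4 KO (log2 fold change −0.69, SE 0.092, edgeR adjusted p = 0.0448). Ndst3 was below WT under all 20 alternatives, at −0.73 to −0.59, but it passed the threshold in 6 of them and not in the other 14 (adjusted p from 2.46e-08 with DESeq2 to 1.00 with Xist as a covariate). Mettl14, an RNA methyltransferase subunit 60.9 kb upstream, was at 41.4 ± 2.63 and 35.7 ± 1.37 CPM (log2 fold change −0.21, edgeR adjusted p = 0.810). In both neighbours all libraries labelled ErbB4 KO lay below all WT libraries, which was seen in 218 of the 14696 genes tested.

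The neighbours of Corin and Prss56 had estimates near 0. Atp10d, 1.25 kb from Corin, had a log2 fold change of 0.01 and Nfxl1 of 0.02, and Ecel1 and Eif4e2 beside Prss56 had −0.15 and 0.01. Around the remaining genes the neighbours were Fzd4 (0.04) and Me3 (0.50) for Prss23, Ikbkb (−0.08) and Ap3m2 (0.03) for Plat, and Plekha1 (0.08) and 2310057M21Rik (0.03) for Htra1. For Serpini1 they were Pdcd10, which starts 691 bases away on the other strand (0.04), and Golim4 (−0.09). Of these, all had an edgeR adjusted p of 0.810 or more.

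Serpine2 and Prss56 lie on chromosome 1, as does Erbb4, at distances of 10.6 and 19.9 Mb from it. Serpine2 is 18.1 kb from Wdfy1, the gene with the lowest p-value in the comparison, which was at 22.0 ± 1.05 CPM in WT and 112 ± 3.47 CPM in libraries labelled ErbB4 KO (log2 fold change 2.34, edgeR adjusted p = 2.16e-09). The nearest tested genes on either side of Serpine2, Mrpl44 and Fam124b, had log2 fold changes of −0.06 and 0.48. In Fam124b (edgeR adjusted p = 0.810) all libraries labelled ErbB4 KO lay above all WT libraries, as in 1.86% of all genes tested. A difference in linked sequence between the colonies and the loss of ErbB4 cannot be told apart for these genes.

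**Figure D4:**
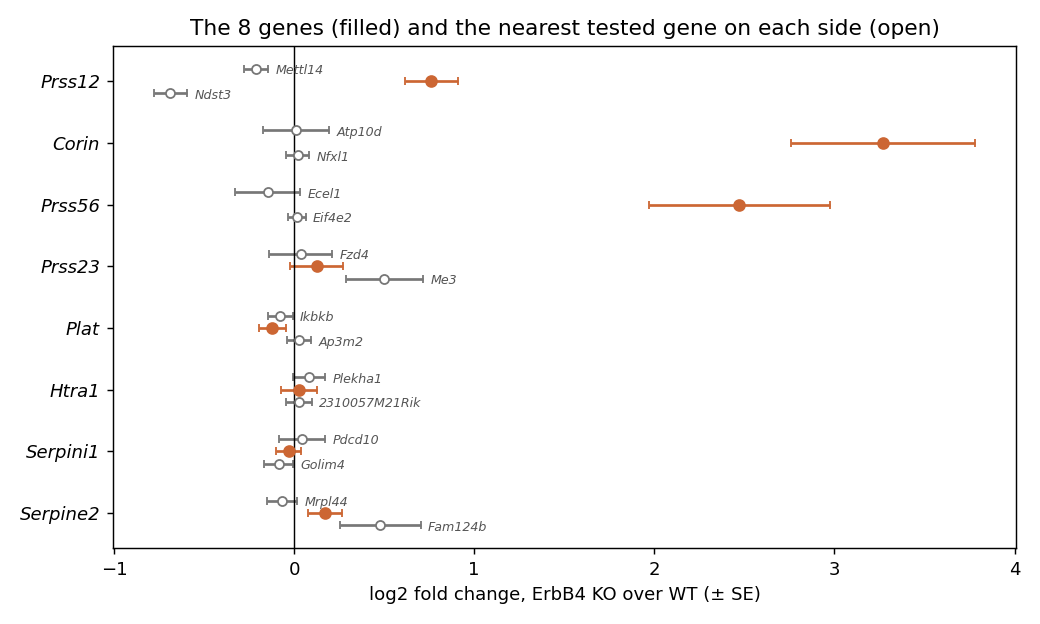
Log2 fold change (± SE) in libraries labelled ErbB4 KO over WT of the 8 genes (filled) and of the nearest tested gene on each side (open, named). Prss12, Corin and Prss56 lie to the right of their neighbours, and Ndst3 and Mettl14 beside Prss12 lie below 0.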

How the data were processed

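Cortices were stored in RNAlater, RNA was extracted with a Qiagen column, and unstranded polyA libraries were sequenced as single 50-nucleotide reads. The authors aligned the reads to mm9 with HISAT and deposited raw counts per gene from HTSeq. The versions, the gene annotation and the counting mode are not given in the sources used here. The deposited table of the authors' DESeq2 comparison was not used. Counts were analysed with edgeR 4.0.16 (R 4.3.3): filterByExpr (minimum count 10, minimum total 15), TMM, glmQLFit and glmQLFTest of the libraries labelled ErbB4 KO against WT without covariates, and Benjamini-Hochberg adjustment over 14696 genes at a threshold of 0.05. Standard errors are the log2 fold change divided by the square root of F. The fit was tested on simulated data. Replicates are separate libraries, and the labels do not say whether embryos shared a litter, so p-values measure the spread between these libraries. Replicate numbers paired no samples by the check of their deviations. Depth was 28205703 to 48871480 counts, and 3 reads correspond to 0.0609 to 0.107 CPM. Positions are those of GENCODE on NCBIM37, and Prss56 was matched through a RefSeq synonym.

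Alternatives were DESeq2 1.42.0, limma-voom (limma 3.58.1), other scalings and filters, a surrogate variable (sva 3.50.0), Xist as a covariate, the replicate block and leaving out each library. The named genes are the 8 chosen ones, Erbb4, Wdfy1, the nearest tested gene on each side, the 3 genes whose profile is most like that of Prss12, Corin or Prss56, and in each list those with an unadjusted p under 0.05 and the 2 highest per kilobase. Nppa, Serpinb1b and the lineage markers were named after their values were seen. The genes, lists and tests were chosen with earlier results of these data known. The values of 1 lineage marker are not reported here.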

Additional observations from a re-analysis of the deposited data

How the results depend on the processing

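The count of genes with an adjusted p under 0.05 in edgeR's test, 4, was 23 with DESeq2. It was 1 with relative log expression scaling, with upper-quartile scaling, with the 10 most abundant genes left out, with Xist as a covariate, and with only the libraries with Y-linked reads (chosen after seeing the data), and 1 to 13 with a library left out (13 without WT replicate 4). With the replicate block it was 1, and 0 of the 8 genes were called; same-numbered libraries correlated at 0.0236 to 0.135 in their deviations, so the numbers were not taken as pairs. Of the 8 genes, 0 were called, against 3 with DESeq2 (Prss12, Corin and Prss56), 1 with a surrogate variable (Prss56) and 0 to 2 with a library left out (2 without WT replicate 1, Prss12 and Prss56). These 3 genes were chosen on this contrast, so their calls are no test. The other lists had 0 calls under all 20 alternatives. Prss12, Corin and Prss56 kept their sign in every fit that gave a value; with a minimum mean of 50 counts, Corin and Prss56 gave none. Corin was fitted at 6.54 with Xist as a covariate and at 7.70 in the libraries with Y-linked reads, where WT held 0 reads and a fitted value is no bound. Estimates near 0 changed sign. Prss23 was at −0.013 with Xist as a covariate and −0.00095 in the libraries with Y-linked reads, and between −0.0015 and 0.20 with a library left out. Htra1 was between −0.045 and 0.083 with a library left out and at −0.017 without WT replicate 1 and ErbB4 KO replicate 3 together, an alternative added after seeing the data. Serpini1 was at 0.0094 with a surrogate variable and between −0.073 and 0.0202 with a library left out. The cause was not tested. Corin and Prss56 in WT are limited by depth, at 9 and 33 reads in all.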

Other observations

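The genes whose log2 CPM followed each of the 3 chosen proteases most closely over the 8 libraries are named here. Nearest to Prss12 were Eps8, an actin regulator (Pearson r = 0.972), Rab22a, an endosomal GTPase (r = 0.965), and Gnptab, which makes the mannose 6-phosphate tag of lysosomal enzymes (r = 0.962). Nearest to Corin were Wdfy1 (r = 0.932), Necap1, a clathrin accessory protein (r = 0.929), and Wdr41 (r = 0.923). Nearest to Prss56 were the amino acid transporter Slc38a3 (r = 0.969), Bcar3 (r = 0.964) and Thbs2, a secreted matrix protein (r = 0.959; 0.465 ± 0.146 CPM in WT and 1.15 ± 0.250 in libraries labelled ErbB4 KO). These coefficients are a description over 8 points that share libraries and the split by genotype, and the genes were the highest of all those tested.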
